A study of Mus musculus with 24 samples.

Results

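Red cells at the maternal-fetal interface (MFI) of the mouse carry haemoglobins whose chains change during gestation, and 9 genes of this programme were followed here by name: the embryonic globins Hbb-bh1, Hbb-y and Hba-x, the adult-type globins Hbb-bs, Hbb-bt, Hba-a1 and Hba-a2, the haem-synthesis enzyme gene Alas2 and the red cell membrane gene Slc4a1. They are 9 of the 55401 genes in the deposited read counts, and each was found once by its name. The tissue was MFI, in which maternal decidua adjoins fetal placenta, from wild-type (WT) mice and from C1qtnf6-KO mice, which lack CTRP6 because CRISPR-Cas9 removed 3 exons of C1qtnf6 from both alleles. Each genotype was taken at 4 gestation days, gd10.5, then gd14.5, then gd16.5 and last gd19.5, with 3 polyA RNA libraries a group and 24 libraries in 8 groups. The labels name no litter, dam, fetus or day of preparation, so p-values measure the spread between these libraries, which may be technical.

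Haemoglobin is built of a pair of alpha-type and a pair of beta-type chains, each holding a haem. In the mouse, primitive red cells born in the yolk sac first make the embryonic chains, zeta from Hba-x and epsilon y and beta h1 from Hbb-y and Hbb-bh1, and definitive red cells from the fetal liver make the adult-type chains that the mother's own red cells also carry. The exchange is called haemoglobin switching, and the genes of each cluster lie along the chromosome in roughly the order in which they are used. Whole MFI holds fetal and maternal blood together, so for the adult-type genes the 2 sources cannot be told apart, and in bulk RNA fewer red cells and less RNA per red cell cannot be told apart either.

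The beta-type genes lie on chromosome 7 of GRCm38, on the minus strand: Hbb-y (ENSMUSG00000052187) at chr7:103851749-103853216, Hbb-bh1 (ENSMUSG00000052217) at chr7:103841637-103843164, Hbb-bs (ENSMUSG00000052305) at chr7:103826534-103828096 and Hbb-bt (ENSMUSG00000073940) at chr7:103812524-103813996. The alpha-type genes lie on the plus strand of chromosome 11, with Hba-x (ENSMUSG00000055609) at chr11:32276400-32278116, Hba-a1 (ENSMUSG00000069919) at chr11:32283511-32284465 and Hba-a2 (ENSMUSG00000069917) at chr11:32296489-32297298. Alas2 (ENSMUSG00000025270) lies at chrX:150547375-150570638 on the plus strand and Slc4a1 (ENSMUSG00000006574) at chr11:102348824-102366203 on the minus strand.

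To show the start regions of genes that went opposite ways, the upstream bases of an embryonic beta gene, an adult-type beta gene and an adult-type alpha gene are given from the RefSeq promoters of GRCm38.p6, in which 7 of the 9 genes were found (all but Hbb-bh1 and Slc4a1). Only bases outside the exons counted in the deposited table are printed, 5′ to 3′ on the strand of the gene, and capitals mark each match on either strand to 4 short motifs of erythroid promoters, the CACCC box, the CCAAT box, the GATA motif GATAA and the TATA-type motif TATAA. The lines cover chr7:103853217-103853357 for Hbb-y, chr7:103827929-103828011 for Hbb-bs and chr11:32296342-32296488 for Hba-a2. The Hbb-bs line lies before the RefSeq start but within the span of the gene given above.
Hbb-y: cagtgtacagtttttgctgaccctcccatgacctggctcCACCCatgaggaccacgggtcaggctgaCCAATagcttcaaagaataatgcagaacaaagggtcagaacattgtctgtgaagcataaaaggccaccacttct
Hbb-bs: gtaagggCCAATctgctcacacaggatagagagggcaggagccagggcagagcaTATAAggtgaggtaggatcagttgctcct
Hba-a2: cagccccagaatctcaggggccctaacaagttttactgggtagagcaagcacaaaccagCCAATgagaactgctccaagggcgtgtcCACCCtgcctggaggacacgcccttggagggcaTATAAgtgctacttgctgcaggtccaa

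The search covered the 150 bases before each RefSeq start, and no matches overlapped. Counted exons held all 150 of these bases for Hba-x and Hba-a1. They held 73 for Hbb-bt, 67 for Hbb-bs, 42 for Alas2, 9 for Hbb-y and 3 for Hba-a2. CACCC occurred in all 7 regions, in Alas2 on the opposite strand only, against 37.4% of the 32851 promoters in the table. CCAAT occurred in 5, all but Hba-x and Alas2 (24.5% of promoters), and TATAA in 5, all but Hbb-y and Alas2 (14.2% of promoters). GATAA occurred in Hba-x and Alas2 (13.3% of promoters). The 3 motifs other than GATAA stood together before the 4 adult-type globin genes, and in 1.1% of all promoters. These are matches of letters, and say nothing of a factor at these genes.

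Levels are given as CPM, the counts of a gene per 1000000 counts of its library's normalized size, and were compared between genes only as CPM per kb of counted exon. Libraries held 20975717 to 37383108 counts. Together the 7 globin genes took 0.183% to 0.477% of the counts at gd10.5, 0.338% to 0.408% at gd14.5, 0.217% to 0.838% at gd16.5 and 0.259% to 0.742% at gd19.5. C1qtnf6 itself had 1625 to 5799 counts in WT libraries and 1 to 45 in KO libraries. Markers of decidua, junctional zone, labyrinth, endothelium and macrophages were found in all 8 groups, and none of the 6 erythroid markers was at 0 in any group, with a summed level of 14.2 to 48.4 CPM per library.

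A few libraries stood apart. KO gd10.5 replicate 2 had a summed level of 19505 CPM over junctional zone and giant cell markers, against 3270 to 6699 in the other gd10.5 libraries, 71.0 CPM of Y-linked genes against at most 0.311, and 46.1 CPM of megakaryocyte and platelet markers against 11.3 to 22.8. Markers of yolk sac endoderm also set libraries apart, with 3826, 36.3 and 34.3 CPM in the WT gd10.5 libraries, 2218, 1265 and 3701 CPM in the KO gd10.5 libraries, 8148, 245 and 219 CPM in the WT gd16.5 libraries and 7800, 22094 and 209 CPM in the KO gd16.5 libraries, against 109 to 476 CPM at gd14.5 and gd19.5. Y-linked genes were at 89.1 CPM in WT gd16.5 replicate 1 and 194 and 188 CPM in KO gd16.5 replicates 1 and 2, against at most 1.14 CPM in the other gd16.5 libraries. High Y-linked sums were not particular to these libraries. At gd14.5 they were 168 CPM in WT replicate 3 and 170 CPM in KO replicate 3. At gd19.5 they were 162 CPM in WT replicate 2 and 127 and 40.0 CPM in KO replicates 2 and 3. The other libraries of these 2 stages had at most 1.70 CPM. Counts of calls are therefore also given without 5 libraries, KO gd10.5 replicate 2, WT gd10.5 replicate 1, WT gd16.5 replicate 1 and KO gd16.5 replicates 1 and 2, an alternative chosen after the data had been seen that leaves KO gd16.5 with 1 library, taken to vary like the other groups. The first of these was picked partly for its level of Hbb-y, itself one of the 9 genes, and the other 4 for yolk sac markers. KO gd10.5 replicates 1 and 3 were kept despite high yolk sac markers. At gd10.5 this alternative thus sets WT libraries with 36.3 and 34.3 CPM of these markers against KO libraries with 2218 and 3701 CPM. The part of these differences in the results was not tested.

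In WT the embryonic globins were lost in 2 steps that differed by gene. From gd10.5 to gd14.5 Hbb-bh1 fell 69.6-fold in WT, Hba-x fell 4.93-fold and Hbb-y showed no fall past the test. From gd14.5 to gd16.5 all 3 fell in WT, Hbb-y by 63.0-fold. At gd19.5 Hbb-bh1 was 6.40-fold higher in WT than at gd16.5, on 32 to 80 counts a library.

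Hbb-bh1 encodes the beta h1 chain of primitive red cells. Its level was 249, 377 and 318 CPM in the 3 WT libraries of gd10.5 and 268, 232 and 518 CPM in the KO libraries. It was 5.37, 3.54 and 4.58 CPM in WT at gd14.5 and 6.32, 3.61 and 2.87 CPM in KO. No library of gd14.5 came near any of gd10.5, and the log2 fold change was −6.12 ± 0.28 (SE) in WT and −6.31 ± 0.81 in KO, with edgeR adjusted p-values of 4.2e-09 and 0.000234.

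At gd16.5 Hbb-bh1 had 18, 3 and 5 counts in the WT libraries and 2, 0 and 38 in the KO libraries, which is 0.744, 0.133 and 0.243 CPM and 0.0995, 0 and 1.73 CPM. A count of 0 allows up to the level of 3 counts, which lay between 0.0773 and 0.149 CPM over the libraries, counting error only. The groups of gd16.5 lay below those of gd14.5 in both genotypes, by a log2 fold change of −3.53 ± 0.45 in WT (edgeR adjusted p = 0.000164), while the −2.94 ± 1.02 in KO did not pass (edgeR adjusted p = 0.0709). Without KO gd16.5 replicate 3, the library with 38 counts, it was −6.65 and passed (edgeR adjusted p = 0.0192), and it also passed without KO gd10.5 replicate 2 (−2.96) or KO gd19.5 replicate 3 (−2.93). With all libraries it passed with no expression filter (edgeR adjusted p = 0.0162), in 1 fit of all 24 libraries (edgeR adjusted p = 0.014) and with voom (−4.88, limma adjusted p = 0.0469). The gene was too low to be tested between the genotypes at gd16.5.

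At gd19.5 Hbb-bh1 reached 77, 80 and 32 counts in WT (3.07, 2.99 and 1.33 CPM) and 22, 75 and 0 in KO (0.961, 2.56 and 0 CPM). Each WT library of gd19.5 lay above each WT library of gd16.5, and the log2 fold change was 2.68 ± 0.50 (edgeR adjusted p = 0.0072). The call was lost in 1 fit of all 24 libraries, where the log2 fold change was 2.67 with an edgeR adjusted p of 0.122. In KO the groups overlapped and the log2 fold change of 1.09 ± 1.21 did not pass (edgeR adjusted p = 0.676).

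Hbb-y encodes epsilon y, the other beta-type chain of primitive red cells, and its fall came a step later. Its values were 436, 678 and 579 CPM in WT at gd10.5 and 407, 2102 and 770 CPM in KO, the highest in the KO replicate 2 that stood apart. At gd14.5 they were 759, 467 and 622 CPM in WT and 837, 559 and 320 CPM in KO. The groups overlapped in both genotypes, and the log2 fold changes of 0.13 ± 0.23 in WT (95% interval −0.37 to 0.64, edgeR adjusted p = 0.649) and −0.94 ± 0.79 in KO (adjusted p = 0.352) did not pass.

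By gd16.5 Hbb-y stood at 13.1, 8.84 and 7.25 CPM in WT and at 4.03, 2.93 and 11.3 CPM in KO. All these libraries lay below all those of gd14.5. The log2 fold change was −5.98 ± 0.30 in WT and −6.57 ± 1.02 in KO, with edgeR adjusted p-values of 1.9e-07 and 0.00215. At gd19.5 the level was 9.95, 11.3 and 6.46 CPM in WT and 14.8, 8.55 and 0.919 CPM in KO, and the groups overlapped those of gd16.5.

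Hba-x encodes zeta, the embryonic alpha-type chain, and its level fell at both steps. It was 253, 326 and 309 CPM in WT at gd10.5 and 252, 508 and 487 CPM in KO. At gd14.5 it was 65.9, 47.6 and 66.0 CPM in WT and 77.8, 56.3 and 42.2 CPM in KO. The groups did not overlap, and the log2 fold change was −2.30 ± 0.20 in WT and −2.83 ± 0.57 in KO (edgeR adjusted p = 8.6e-07 and 0.00258).

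At gd16.5 Hba-x was 4.83, 2.74 and 2.67 CPM in WT and 0.747, 0.677 and 4.01 CPM in KO, again with no overlap with gd14.5. This second fall was −4.11 ± 0.24 in WT and −5.07 ± 0.71 in KO on the log2 scale, with edgeR adjusted p-values of 8.4e-07 and 0.00124. At gd19.5 it was 2.99, 3.58 and 1.83 CPM in WT and 4.11, 4.19 and 0.579 CPM in KO, which overlapped gd16.5.

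**Figure D1:**
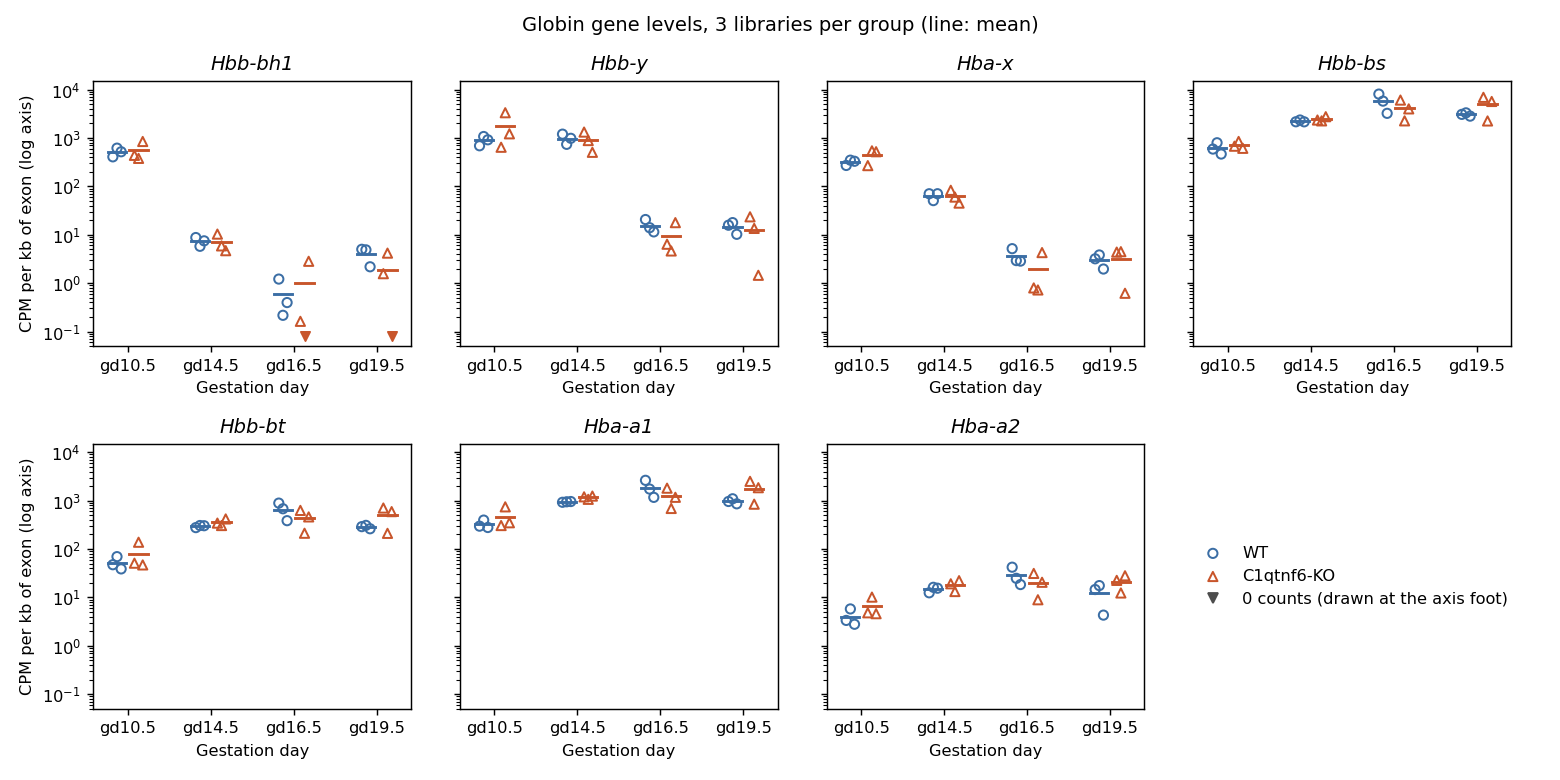
Level of each of the 7 globin genes in each library, as CPM per kb of counted exon on a log axis, against gestation day, with WT and KO libraries in separate colours. Points at the foot of the Hbb-bh1 panel are the 2 libraries with 0 counts, and the embryonic genes fall by gd16.5 while Hbb-bs, Hbb-bt, Hba-a1 and Hba-a2 lie above their gd10.5 levels in nearly every later library.

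The adult-type globins rose over the same interval. All 4 genes passed the test upward from gd10.5 to gd14.5 in both genotypes, by 2.92-fold to 5.69-fold in WT and by 2.50-fold to 4.51-fold in KO. In WT the beta-type genes Hbb-bs and Hbb-bt rose again to gd16.5, and Hbb-bt fell to gd19.5. In KO none of the 4 passed after gd14.5. Marker sums also moved from gd10.5 to gd14.5, from 3270 to 6699 CPM (19505 in KO replicate 2) to between 30891 and 38265 CPM for junctional zone and giant cells, from 314 to 535 CPM to between 651 and 821 CPM for labyrinth, and from 59.3 to 167 CPM to between 24.03 and 33.6 CPM for neutrophils. Macrophage sums went from between 449 and 650 CPM to between 745 and 979 CPM. Endothelial sums were 1808 to 1931 CPM at gd10.5 (1418 in KO replicate 2) and 1263 to 1441 CPM at gd14.5, and overlapped only through that library. Decidua sums fell in WT, from 6374 to 13753 CPM to between 4066 and 4095 CPM, and overlapped in KO. Erythroid sums of 23.4 to 48.4 CPM and 23.6 to 30.8 CPM overlapped. Such a sum does not show the course of each marker, and those of Rhag and Klf1 are given below. The part of these markers in the globin changes was not tested.

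Hbb-bs and Hbb-bt encode the beta chains of definitive red cells. Hbb-bs was at 453, 611 and 357 CPM in WT at gd10.5 and 519, 650 and 469 CPM in KO, and at gd14.5 at 1658, 1803 and 1654 CPM in WT and 1802, 1730 and 2112 CPM in KO. The groups stood wholly apart, with a log2 fold change of 1.85 ± 0.27 in WT and 1.78 ± 0.41 in KO (edgeR adjusted p = 7.2e-05 and 0.00511). Hbb-bt was at 33.3, 49.0 and 27.3 CPM in WT at gd10.5 and 195, 215 and 213 CPM at gd14.5, and in KO it went from 35.9, 97.2 and 33.0 CPM to 242, 215 and 294 CPM. Its log2 fold change was 2.51 ± 0.26 in WT and 2.17 ± 0.54 in KO (edgeR adjusted p = 5.0e-06 and 0.00715), again with no overlap.

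At gd16.5 Hbb-bs stood at 6192, 4429 and 2476 CPM in WT and at 4656, 1732 and 3062 CPM in KO, and Hbb-bt at 625, 478 and 271 CPM in WT and 442, 149 and 324 CPM in KO. All WT libraries of gd16.5 lay above those of gd14.5, and both genes passed, with a log2 fold change of 1.36 ± 0.26 for Hbb-bs and 1.15 ± 0.25 for Hbb-bt (edgeR adjusted p = 0.00295 and 0.00589). Without WT gd16.5 replicate 1, the highest library, the change of Hbb-bt was 0.86 and under the fold limit, and in 1 fit of all 24 libraries it was 1.14 with an edgeR adjusted p of 0.0775. In KO the groups overlapped for both genes, and neither passed (0.75 ± 0.40 and 0.29 ± 0.51, edgeR adjusted p = 0.229 and 0.747).

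At gd19.5 the WT libraries were close together, at 2358, 2536 and 2168 CPM for Hbb-bs and 204, 217 and 184 CPM for Hbb-bt. The KO libraries spread from 1724 to 5308 CPM for Hbb-bs and from 148 to 495 CPM for Hbb-bt, with replicate 2 the lowest of both. From gd16.5 to gd19.5 Hbb-bt fell by 1.18 ± 0.25 on the log2 scale in WT (edgeR adjusted p = 0.0144), and the −0.89 ± 0.26 of Hbb-bs did not pass (adjusted p = 0.0565). Without WT gd16.5 replicate 1 the change of Hbb-bt was −0.89 and under the fold limit, and without WT gd19.5 replicate 3 it was −1.12 with an edgeR adjusted p of 0.0715. In 1 fit of all 24 libraries its edgeR adjusted p was 0.125. Without WT gd16.5 replicate 3 the change of Hbb-bs was −1.17 and passed (edgeR adjusted p = 0.00748).

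Hba-a1 and Hba-a2 encode the same adult alpha chain. Hba-a1 went from 241, 322 and 226 CPM at gd10.5 to 751, 769 and 778 CPM at gd14.5 in WT, and from 248, 604 and 284 CPM to 974, 865 and 1009 CPM in KO. Its log2 fold change was 1.55 ± 0.23 in WT and 1.32 ± 0.45 in KO (edgeR adjusted p = 9.4e-05 and 0.032), and that of Hba-a2, which stood at 1.86 to 6.77 CPM at gd10.5 and 8.31 to 14.8 CPM at gd14.5, was 1.86 ± 0.45 and 1.47 ± 0.47 (adjusted p = 0.00316 and 0.0236). The KO calls of the pair were lost without KO gd10.5 replicate 1 or 3 or KO gd14.5 replicate 1 or 3, and that of Hba-a1 also without KO gd14.5 replicate 2, with edgeR adjusted p-values of up to 0.116 for Hba-a1 and 0.0876 for Hba-a2.

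At gd16.5 Hba-a1 was 2136, 1409 and 949 CPM in WT and 1470, 560 and 952 CPM in KO. The WT libraries lay above gd14.5, but the log2 fold change of 0.97 ± 0.23 was under the fold limit (edgeR adjusted p = 0.00885), which it passed without WT gd16.5 replicate 2 (1.01) or 3 (1.21) and with voom (1.06). At gd19.5 Hba-a1 was 780, 888 and 698 CPM in WT and 2035, 687 and 1503 CPM in KO, and the change from gd16.5 was −0.92 ± 0.23 in WT (edgeR adjusted p = 0.0288), again under the fold limit, and it passed without WT gd16.5 replicate 3 (−1.17).

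Hba-a2 had a like course at lower counts. It was 28.1, 16.6 and 12.3 CPM in WT at gd16.5 and 20.9, 5.97 and 13.7 CPM in KO, and 9.71, 11.7 and 2.88 CPM in WT at gd19.5 and 15.02, 8.25 and 18.7 CPM in KO. Its WT libraries of gd16.5 lay wholly above those of gd14.5 and of gd19.5, and the KO groups overlapped. In WT the log2 fold change was 0.96 ± 0.41 to gd16.5 (edgeR adjusted p = 0.113), which passed with voom (1.09, limma adjusted p = 0.0317). To gd19.5 it was −1.22 ± 0.42 (edgeR adjusted p = 0.0928), which passed with no expression filter (−1.25, edgeR adjusted p = 1.06e-08). That setting also raised the calls over all genes at this step from 397 to 672.

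The near-identical copies limit what the adult-type counts mean. The transcripts of Hba-a1 and Hba-a2 were 99.8% identical over 538 aligned bases and those of Hbb-bs and Hbb-bt 93.6% identical over 609, and 48.4% to 65.7% of all 150-base windows of these 4 transcripts occurred unaltered in the partner gene. Reads that map to several places were left out of the counts, so the split within each pair is uncertain, adult-type levels can be too low and embryonic shares too high. With each pair summed into 1 gene, each call of Hbb-bs and Hba-a1 kept its direction and its side of the threshold. No window of Hbb-bh1, Hbb-y or Hba-x occurred in another gene.

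Counts of members put these changes beside all genes. From gd10.5 to gd14.5 in WT, 7 of the 9 genes were called (4 higher, 3 lower), where a call needs a log2 fold change of more than 1 up or down as well as an edgeR adjusted p below 0.05. Of all 18523 genes tested, 22.2% were called (10.7% higher, 11.6% lower), and the median log2 fold change was 0.36 over the 9 genes and −0.01 over all. In 5 genes the gd14.5 libraries lay wholly above those of gd10.5 and in 3 wholly below, as in 31% and 32.6% of all genes. In KO 7 of 9 were called, again 4 higher and 3 lower, against 18.7% of genes (8.53% higher, 10.2% lower), with a median of 0.66, and 5 lay wholly above and 3 wholly below, against 26.9% and 25.9%.

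From gd14.5 to gd16.5, 6 of 9 were called in WT (3 higher, 3 lower) against 5.6% of genes (3.04% higher, 2.55% lower), with a median of 0.96, and 5 lay wholly above and 3 wholly below, against 21.1% and 20.2%. In KO 2 of 9 were called, both lower, against 7.53% of genes (4.78% higher, 2.76% lower), with a median of 0.07. None lay wholly above gd14.5 there and 4 lay wholly below (the 3 embryonic globins and Slc4a1), against 21.4% and 23% of genes. Neighbouring steps share the libraries of the middle stage. Without the 5 libraries that stood apart, edgeR called 7 and 5 of the 9 genes over these 2 steps in WT. No share over all genes is given for these counts, and in KO that alternative leaves gd16.5 with 1 library.

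From gd16.5 to gd19.5, 4 of 9 were called in WT (Hbb-bh1 higher, and Hbb-bt, Alas2 and Slc4a1 lower) against 2.14% of genes (1.2% higher, 0.939% lower), with a median of −0.92, and 1 lay wholly above and 5 wholly below, against 13.3% and 16.9%. The count was 2 (Hbb-bh1 and Slc4a1) without the 5 libraries and ranged from 2 to 6 as single libraries were left out, with 2 both without WT gd16.5 replicate 1 and without WT gd19.5 replicate 3, and 6 without WT gd16.5 replicate 3. In KO none of the 9 was called by edgeR, by DESeq2 or by voom, against 0.693% of genes, and none had an unadjusted p under 0.05, against 18.3% of genes. None of the 9 had groups wholly above or below there, against 16.8% and 13.7% of genes, and the median was 0.41.

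The embryonic share of each globin family sums up the switch, and is given as a description with no test. At gd10.5 Hbb-bh1 and Hbb-y together made 63.2%, 66.1% and 74.0% of beta-type counts per kb in WT and 59.8%, 79.0% and 75.8% in KO. At gd14.5 they made 33.1%, 21.9% and 28.7% in WT and 33.1%, 25.8% and 13.9% in KO. It lay between 0.0975% and 0.461% at gd16.5 and between 0.0232% and 0.715% at gd19.5, with no overlap between gd10.5, gd14.5 and the later stages, while gd16.5 and gd19.5 overlapped.

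With Hba-a1 and Hba-a2 summed, the embryonic share of the alpha family was below that of the beta family in each library of gd10.5, gd14.5 and gd16.5. It was also below in each library of gd19.5 but KO replicate 3. Hba-x made 41.8% to 59.5% of alpha-type counts per kb at gd10.5 and 3.44% to 6.97% at gd14.5. Its mean share at gd14.5 was 5.63%, and 10.6% with the mean of Hba-a1 and Hba-a2 in place of their sum. At gd16.5 its share was 0.0432% to 0.357% and at gd19.5 0.0328% to 0.518%. The lowest library of gd19.5 in both families was KO replicate 3, which also had 0 counts of Hbb-bh1.

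**Figure D2:**
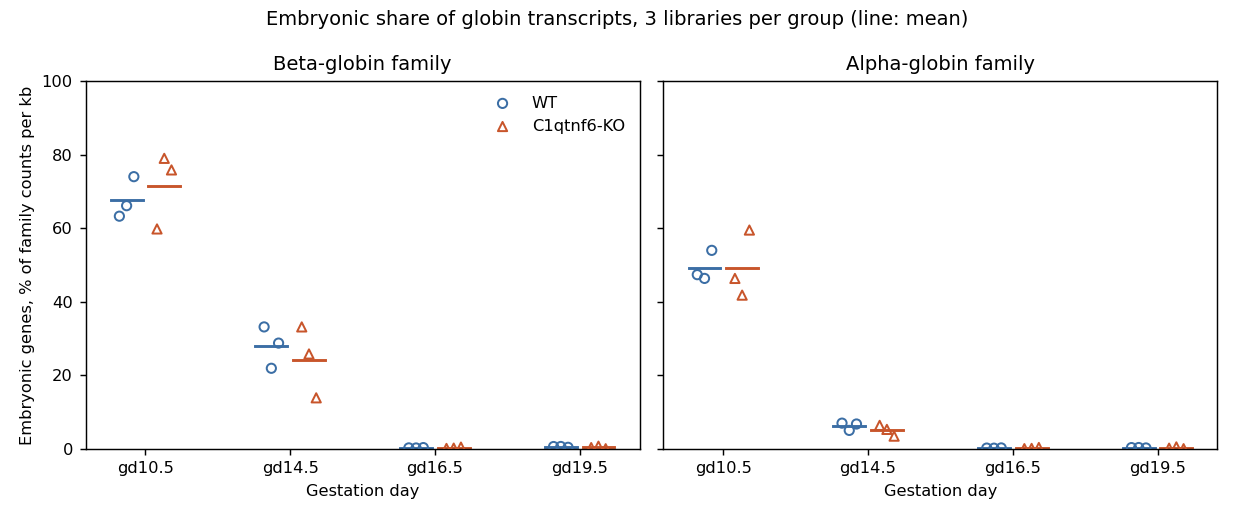
Embryonic share of beta-type (Hbb-bh1 and Hbb-y) and alpha-type (Hba-x) globin counts per kb in each library, in percent, against gestation day for WT and KO. Beta shares of 13.9% to 33.1% remain at gd14.5, when alpha shares are at most 6.97%, and both are under 1% at gd16.5 and gd19.5.

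Within the embryonic beta pair the balance moved from Hbb-bh1 to Hbb-y by gd14.5, and the lower ratios of later stages did not pass the test. The ratio of Hbb-y to Hbb-bh1 per kb was 1.44 to 1.77 in 5 of the 6 gd10.5 libraries, 8.78 in KO replicate 2, and 107 to 150 at gd14.5. Between these stages the mean log2 ratio, with genotypes together and 0.5 counts added, rose by 5.92 (exact two-sided permutation test over 6 against 6 libraries, p = 0.00216, the smallest it can give, adjusted p = 0.0152 over 14 ratio tests). Hbb-bh1 made 36.2% to 41.0% of the pair at gd10.5 outside KO replicate 2, where it made 10.2%, and 0.661% to 0.919% at gd14.5.

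At gd16.5 the ratio was 16.6 and 26.3 in WT replicates 1 and 3, and 64.6 in replicate 2, where 3 counts of Hbb-bh1 give a 95% counting interval of 21.8 to 316. In KO it was 39.2 on 2 counts (interval 10.51 to 329), at least 30.7 on 0 counts and 6.23. At gd19.5 it was 3.13, 3.64 and 4.63 in WT and 14.7, 3.23 and at least 8.72 in KO. The difference in mean log2 ratio was −2.06 from gd14.5 to gd16.5 (exact permutation p = 0.0152, adjusted p = 0.053) and −2.12 from gd16.5 to gd19.5 (p = 0.0519, adjusted p = 0.121), and neither passed. With 5 counts added in place of 0.5, both passed, at −3.19 (adjusted p = 0.0101, exact permutation) and −1.55 (adjusted p = 0.0379, exact permutation). At gd16.5 those 5 counts equal or exceed the Hbb-bh1 counts of all libraries but WT replicate 1 and KO replicate 3. The added counts thus set much of the ratio there. Both differences also passed without 1 library each, KO gd16.5 replicate 2 for the first (−2.58) and KO gd19.5 replicate 3 for the second (−2.70).

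Within the adult beta pair the ratio of Hbb-bt to Hbb-bs per kb was 0.0756 to 0.0876 at gd10.5, except 0.163 in KO replicate 2. It was 0.128 to 0.152 at gd14.5, 0.0941 to 0.120 at gd16.5 and 0.0929 to 0.105 at gd19.5. The fall of 0.34 in mean log2 ratio from gd14.5 to gd16.5 passed (exact permutation p = 0.00216, adjusted p = 0.0152), and the differences of 0.61 before it and −0.18 after it did not (exact permutation, adjusted p = 0.053 and 0.0606), though the first passed with 5 counts added (exact permutation, adjusted p = 0.0424). Without KO gd10.5 replicate 2 the first difference was 0.78 and passed (exact permutation, adjusted p = 0.0202), and the last passed without KO gd16.5 replicate 2 (−0.23) or KO gd19.5 replicate 3 (−0.21). The genes share windows, and the split of their reads is uncertain as said above. Between the genotypes no ratio test passed at any stage, in a design whose smallest p is 0.1.

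**Figure D3:**
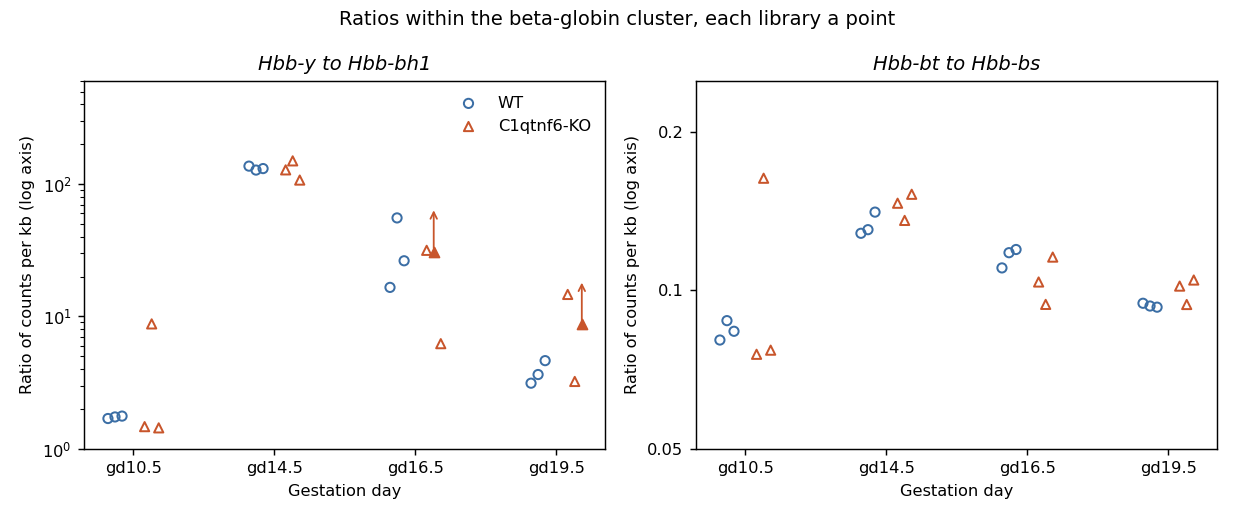
Ratio of Hbb-y to Hbb-bh1 and of Hbb-bt to Hbb-bs, each per kb, in each library against gestation day, on log axes, with WT and KO in separate colours. Libraries with 0 counts of Hbb-bh1 are drawn at their lower bound with an arrow, and the first ratio peaks at 107 to 150 at gd14.5.

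Alas2 encodes the red cell form of the first enzyme of haem synthesis, and its course was neither that of the embryonic nor wholly that of the adult-type globins. It was 43.5, 47.1 and 34.6 CPM in WT at gd10.5 and 51.2, 53.9 and 55.1 CPM at gd14.5. In KO it was 34.2, 61.7 and 44.5 CPM and then 68.5, 67.5 and 86.0 CPM. The later libraries lay above the earlier in both genotypes, but the log2 fold changes of 0.36 ± 0.22 and 0.66 ± 0.37 did not pass (edgeR adjusted p = 0.193 and 0.165).

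At gd16.5 Alas2 was 235, 149 and 107 CPM in WT and 137, 58.0 and 88.0 CPM in KO. The WT rise from gd14.5 was 1.62 ± 0.23 on the log2 scale (edgeR adjusted p = 0.000324) with no overlap, and in KO the groups overlapped (0.35 ± 0.37, adjusted p = 0.552). At gd19.5 it was 81.7, 87.7 and 62.6 CPM in WT, a fall of 1.08 ± 0.22 (edgeR adjusted p = 0.0127), and 180, 68.1 and 152 CPM in KO. Without WT gd16.5 replicate 1 the log2 fold change was −0.73 and under the fold limit, and without WT gd19.5 replicate 3 it was −0.95 (edgeR adjusted p = 0.0685). In 1 fit of all 24 libraries the edgeR adjusted p was 0.0631. Of the 2403 counted exon bases of Alas2, 311 are shared with exons of Apex2 and 61 with Mir3620, both on the opposite strand, and the counting took no account of strand.

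Slc4a1 encodes band 3, the anion exchanger that anchors the membrane skeleton of red cells. It was highest at gd10.5, with 34.2, 42.6 and 42.8 CPM in WT and 29.97, 107 and 52.5 CPM in KO, the 107 in the replicate 2 that stood apart. At gd14.5 it was 13.3, 18.1 and 14.6 CPM in WT and 17.8, 15.7 and 20.4 CPM in KO. The fall passed in both genotypes, with log2 fold changes of −1.37 ± 0.20 and −1.82 ± 0.48 (edgeR adjusted p = 8.1e-05 and 0.00987).

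In WT Slc4a1 stayed at 22.8, 21.6 and 15.9 CPM at gd16.5 (0.40 ± 0.20, adjusted p = 0.187) and then fell to 6.09, 6.61 and 3.33 CPM at gd19.5, by 1.90 ± 0.22 on the log2 scale (edgeR adjusted p = 0.00054). In KO it was 13.9, 4.77 and 11.2 CPM at gd16.5 and 14.4, 5.79 and 11.8 CPM at gd19.5, and neither step passed. Per kb, the ratio of Slc4a1 to Alas2 was 0.387 to 0.853 at gd10.5, 0.114 to 0.165 at gd14.5, 0.0406 to 0.0731 at gd16.5 and 0.0263 to 0.0419 at gd19.5, and these ranges overlapped only between the last 2 stages.

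**Figure D4:**
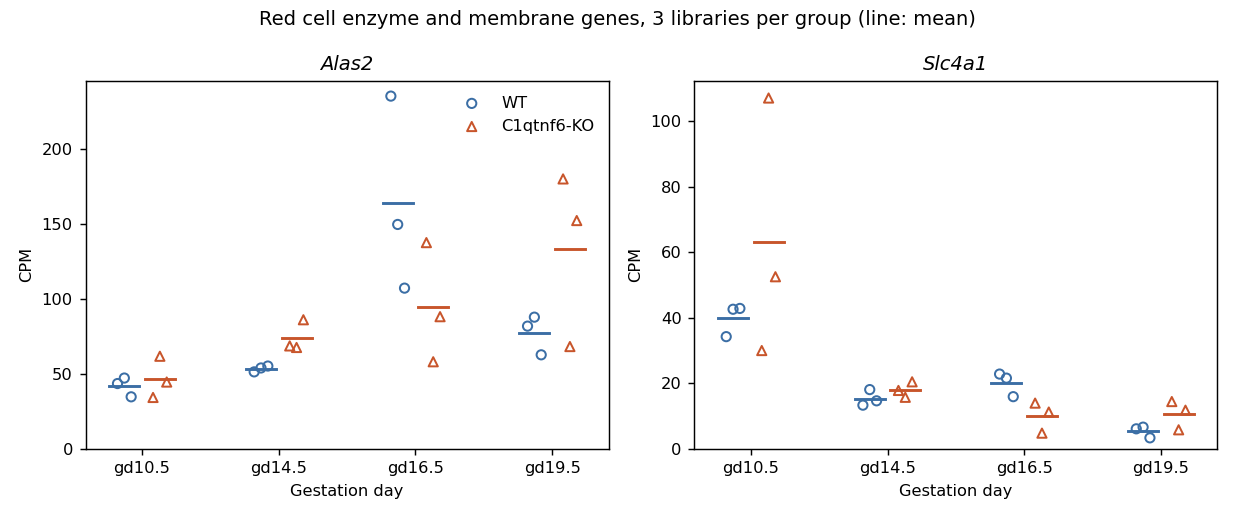
CPM of Alas2 and Slc4a1 in each library against gestation day, on linear axes from 0, with WT and KO in separate colours. Alas2 has its highest WT libraries at gd16.5 (107 to 235 CPM), whereas Slc4a1 has its highest libraries at gd10.5 (29.97 to 107 CPM).

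The loss of C1qtnf6 was compared within each stage. None of the 9 genes was called at gd10.5, gd14.5 or gd19.5, nor any of the 8 tested at gd16.5, by edgeR, DESeq2 or voom, against 0.00572%, 0.0166%, 0.00586% and 0.023% of all genes at the 4 stages in edgeR. At an unadjusted p under 0.05 there were 0, 3, 1 and 4 of these genes, against 0.801%, 6.78%, 11.1% and 13.5% of all genes. The median log2 fold change of the members, KO minus WT, was 0.53, 0.22, −0.63 and 0.75, and the median over all genes was 0.01 or closer to 0 at each stage.

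At gd14.5 Alas2 and Hba-a1 were higher in each KO library than in any WT library, by 0.46 ± 0.09 and 0.30 ± 0.08 on the log2 scale, where 6.42% of genes had KO libraries wholly above. Neither passed (edgeR adjusted p = 0.452 and 0.625). At gd16.5 Slc4a1 was lower in each KO library, by −1.01 ± 0.35 on the log2 scale with an edgeR adjusted p of 0.431, where 9.62% of genes had KO libraries wholly below. The KO libraries of gd16.5 also had 14.97 to 25.8 CPM summed over the erythroid markers, against 27.7 to 32.0 CPM in WT. Junctional zone and giant cell sums were higher there, at 57218 to 63021 CPM in KO against 34391 to 48576 CPM in WT, and labyrinth (382 to 589 against 597 to 702 CPM) and decidua sums (2949 to 3297 against 3609 to 4076 CPM) were lower. The part of these markers in the Slc4a1 difference was not tested.

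At gd19.5 KO replicates 1 and 3 lay above all WT libraries for Hbb-bs, Hbb-bt, Hba-a1, Hba-a2, Alas2 and Slc4a1, and KO replicate 2 lay within or below the WT range. With all 3 libraries the log2 fold changes of these 6 genes were 0.66 to 0.96 and their edgeR adjusted p-values 0.266 to 0.453. Without replicate 2, 4 of the 9 genes were called by edgeR, Hbb-bs (1.01, adjusted p = 0.0213), Hbb-bt (1.15, 0.00362), Hba-a1 (1.14, 0.0213) and Alas2 (1.08, 0.0213). Replicate 2 was the lowest KO library of gd19.5 for each of these 4 genes. Without it 7 of all genes were called at this stage, in place of 4. That library had the lowest erythroid marker sum of its group, 14.2 CPM against 25.9 in replicate 1 and 18.8 in replicate 3, and the WT sums were 22.7, 21.1 and 17.9 CPM. The sum of KO replicate 3 thus lay within the WT range, though its levels of the 6 genes lay above it. The embryonic genes showed no such split, with KO replicate 3 the lowest library of gd19.5 for Hbb-bh1, Hbb-y and Hba-x. Y-linked sums at gd19.5 were 1.70, 127 and 40.0 CPM in KO replicates 1 to 3 and 0.916, 162 and 0.917 CPM in WT. Their part in the split was not tested.

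The genotype effect did not differ between stages past the test for any of the 9 genes, and for 0 of 19299 genes (7.23% at an unadjusted p under 0.05). The smallest unadjusted p-values among the members were 0.0122 for Slc4a1 and 0.0162 for Alas2, with edgeR adjusted p-values of 0.606 and 0.645. In a model of genotype over all 4 stages none of the 9 was called, against 0.0104% of genes and 6.34% at an unadjusted p under 0.05. Without the 5 libraries none of the 9 was called between genotypes at gd10.5, where 238 of all genes were, in place of 1. At gd16.5 that alternative sets 2 WT libraries against 1 KO library.

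**Figure D5:**
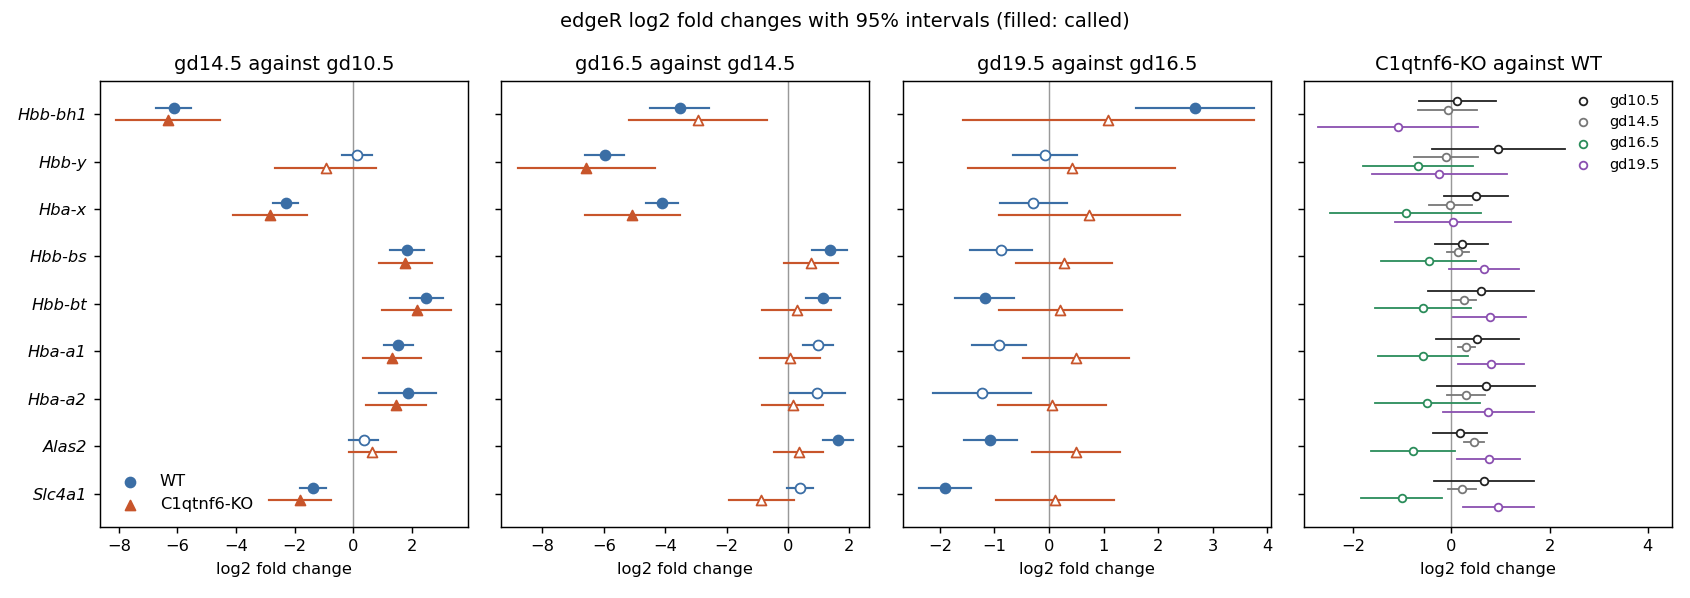
Log2 fold changes of the 9 genes from edgeR with their 95% intervals, for each step between stages in WT and KO and for KO against WT at each stage, with filled points for genes that were called. Filled points lie on both sides of 0 for the first step in WT and KO and the second in WT, and on the lower side alone for the second in KO, and there is no filled point for KO against WT, where Hbb-bh1 at gd16.5 was not tested.

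The members fell into groups that varied together. With each group's mean removed from log2 CPM, Pearson's r over the 24 libraries was 0.936 between Hbb-bh1 and Hba-x, 0.913 between Hbb-y and Hba-x and 0.769 between Hbb-bh1 and Hbb-y. It was 0.976 between Hbb-bt and Hba-a1 and 0.959 between Alas2 and Hba-a1, and −0.0838 to 0.309 between embryonic and adult-type globins. These are descriptions over libraries that share their depth and their tissue mix among the genes.

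Genes among those with the most similar levels over the 24 libraries, of 19290 compared, differed by member. For Hbb-bh1 they were Hoxd11 (r = 0.954), Trbc1 (0.951), Phactr3 (0.945), Cdc6 (0.944) and Srsf1 (0.942). For Hbb-bt they included 9830107B12Rik (0.955), Plpp1 (0.954), Nrbp1 (0.951) and Eva1b (0.945). For Alas2 they included Bpgm (0.91), Pcca (0.863), Marchf2 (0.862) and Bcap31 (0.859), and with group means removed Bpgm (0.914), Trim10 (0.804) and Gm20139 (0.803). Bpgm makes 2,3-bisphosphoglycerate, which lowers the oxygen affinity of haemoglobin.

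Other genes of the red cell programme were followed as lists. Of the 14 red cell membrane and skeleton genes tested from gd10.5 to gd14.5 in WT, 8 fell and 1 rose, with a median log2 fold change of −1.35, and in KO 10 fell and none rose, with a median of −1.55. Of all genes, 11.6% fell and 10.7% rose at this step in WT, and 10.2% and 8.53% in KO. The largest falls in WT were those of Ank1 (−2.28 ± 0.23), Sptb (−2.26 ± 0.22) and Rhag (−2.23 ± 0.43), for ankyrin, beta spectrin and the Rh-associated glycoprotein, with edgeR adjusted p-values of 3.9e-06, 3.2e-06 and 0.000688. Ankyrin ties band 3, the product of Slc4a1, to the spectrin skeleton.

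The 8 haem synthesis genes other than Alas2 had no call at this step in either genotype, and 3 of 8 had an unadjusted p under 0.05 in each, against 60.8% of all genes in WT and 54% in KO. Among their best-expressed members, the log2 fold changes in WT were 0.02 ± 0.09 for Alas1, the form of the first enzyme used outside red cells, and −0.52 ± 0.11 for Fech, which puts the iron into haem. Of 6 iron supply genes 1 rose and 1 fell in WT, where 10.7% and 11.6% of all genes did, Tfrc, the transferrin receptor, by 1.44 ± 0.29 and Slc25a37, the mitochondrial iron carrier, by −1.003 ± 0.09 (edgeR adjusted p = 0.000941 and 1.3e-06), while Glrx5 (−0.33 ± 0.09) stayed under the fold limit.

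Of 13 erythroid transcription and globin-switching factors, 2 rose and 3 fell in WT from gd10.5 to gd14.5, and 2 rose and 4 fell in KO, where all genes had 10.7% and 11.6% in WT and 8.53% and 10.2% in KO. Myb, a factor of immature blood cells, fell by 3.07 ± 0.26 on the log2 scale, Gfi1b by 2.26 ± 0.46 and Klf1, an activator of adult beta-globin, by 2.10 ± 0.27 in WT (edgeR adjusted p = 7.2e-07, 0.00111 and 2.7e-05). Mean levels of Klf1 in WT were 2.49, 0.576, 0.209 and 0.227 CPM from gd10.5 to gd19.5, and its groups of gd16.5 and gd19.5 overlapped. Bcl11a, which silences embryonic globins, had mean levels of 0.537, 0.417, 0.542 and 0.748 CPM and passed no step in WT.

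Among 8 late red cell genes tested, 1 rose and 2 fell in WT at the first step, against 10.7% and 11.6% of all genes, with Hemgn at −3.08 ± 0.34, Fam210b at −1.18 ± 0.10 and Blvrb, a biliverdin reductase, at 1.09 ± 0.08 on the log2 scale. Of 6 genes for clearing haemoglobin and haem, 1 rose (10.7% of all genes), the iron exporter Slc40a1 (1.88 ± 0.13, edgeR adjusted p = 1.2e-07), while Hmox1 (−0.45 ± 0.08), the haem oxygenase, and Blvra (0.46 ± 0.11) stayed under the fold limit. The other globins Mb (−0.68 ± 0.32) and Cygb (−0.11 ± 0.26) did not pass, and Hbq1b was too low to be tested in WT. Between KO and WT no gene of these 7 lists was called at any stage by edgeR.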

How the data were processed

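The 24 libraries were polyA RNA-seq of mouse MFI, 3 per genotype and stage. The authors trimmed reads with Trim Galore 0.6.4, aligned them with STAR 2.7.3a to GRCm38 and counted them per gene with featureCounts of Subread 2.0.0, and the deposited values are raw counts. Counting ignored strand and left out reads that map to several places, which affects near-identical and overlapping genes. No 2 libraries were identical.

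Groups came from the labels. KO replicates are numbered 1 to 3 as in the sample descriptions, while their titles number the same libraries 3 to 5. Libraries held 20975717 to 37383108 counts, and intervals and floors cover counting error only. Each genotype comparison was fitted on its own 6 libraries, each stage comparison on the 12 libraries of its genotype, and the interaction and additive models on all 24.

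Counts were normalized by TMM, filtered by filterByExpr (minimum count 10, minimum total 15) and tested with edgeR 4.0.16 (quasi-likelihood, Benjamini-Hochberg over all genes tested) in R 4.3.3. Log2 ratios had 0.5 counts added and were tested by exact two-sided permutation with scipy 1.17.1. Transcripts were compared with BLAST 2.17.0. The fits were tested on simulated data. Alternatives were DESeq2 1.42.0, voom in limma 3.58.1, DESeq2 size factors, other filters and scalings, summed gene pairs, no fold limit, a replicate block, 1 fit of 24 libraries, leaving out single libraries and, chosen after the data were seen, leaving out 5.

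The 9 genes and all lists were chosen with earlier results of these data known. All 9 are named throughout. From each other list at most 3 genes are named, those with the largest called change in WT from gd10.5 to gd14.5, then those with the highest mean CPM. The 5 genes with the highest r were named for Hbb-bh1, Hbb-bt and Alas2, and for Alas2 also with group means removed (prior count 2). Some genes that this rule names are not reported here.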

Additional observations from a re-analysis of the deposited data

How the results depend on the processing

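Called changes of the 9 genes kept direction and call in 268 of 276 values under other settings and in 298 of 312 with 1 library left out, lost the call in 8 and 14, and reversed in none. With 3 libraries a group, no genotype ratio test could pass, and Hbb-bh1 at gd16.5 rests on 0 to 38 counts a library. Causes were not tested. Without the 5 libraries, 2 members were called in WT from gd16.5 to gd19.5, where 1 fit of 24 libraries called 1. With no expression filter 1 was called between genotypes at gd19.5, Hbb-bh1 (−1.08, edgeR adjusted p = 0.000139). Its KO libraries of 22, 75 and 0 counts overlapped the WT libraries of 77, 80 and 32 counts. The main fit also gave −1.08, with an SE of 0.72 and an edgeR adjusted p of 0.529. Over all genes 82 were called at gd19.5 with no filter, in place of 4.

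Uncalled values changed sign. Without the 5 libraries, KO minus WT at gd10.5 was −0.081 for Hbb-y, −0.14 for Hbb-bt, −0.030 for Hba-a1, −0.043 for Alas2 and −0.036 for Slc4a1, and at gd16.5 0.50 for Hbb-y and 0.58 for Hba-x. WT steps were −0.019 (Hbb-y, gd10.5 to gd14.5) and 0.21 (Hbb-y) and 0.065 (Hba-x) from gd16.5 to gd19.5, and that step in KO −0.55 for Hbb-bh1, −0.51 for Hbb-y, −0.47 for Hba-x and −0.084 for Slc4a1. With voom, KO minus WT was −0.12 for Alas2 at gd10.5 and −0.79 for Hba-x at gd19.5, and Hbb-y in KO was 0.011 from gd10.5 to gd14.5 and −0.16 from gd16.5 to gd19.5. With 5 counts added, the log2 ratio of Hbb-y to Hbb-bh1 was −0.65 between genotypes at gd16.5. Some ratio differences kept their sign with 5 counts added but then passed. They were −3.19 from gd14.5 to gd16.5 and −1.55 to gd19.5 for Hbb-y to Hbb-bh1, and 0.61 from gd10.5 to gd14.5 for Hbb-bt to Hbb-bs. With the mean of Hba-a1 and Hba-a2, the embryonic alpha share was 65.8%, 10.6%, 0.366% and 0.537% at the 4 stages.

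Leaving out 1 library at a time, members called ranged from 0 to 4 between genotypes at gd19.5 and from 2 to 6 in WT from gd16.5 to gd19.5. KO minus WT ranged at gd10.5 from −0.32 to 0.33 for Hbb-bh1, −0.081 to 0.88 for Hbb-bt and −0.081 to 0.35 for Alas2, at gd14.5 from −0.47 to 0.12 for Hbb-bh1, −0.49 to 0.18 for Hbb-y and −0.28 to 0.16 for Hba-x, and at gd19.5 from −0.98 to 0.31 for Hbb-y and −0.36 to 0.54 for Hba-x. WT ranges were −0.046 to 0.30 for Hbb-y from gd10.5 to gd14.5, and −0.25 to 0.20 for Hbb-y and −0.51 to 0.058 for Hba-x from gd16.5 to gd19.5. KO ranges from gd14.5 to gd16.5 were −0.080 to 0.62 for Hbb-bt, −0.33 to 0.35 for Hba-a1, −0.31 to 0.52 for Hba-a2 and −0.019 to 0.61 for Alas2. From gd16.5 to gd19.5 they were −0.36 to 4.80 for Hbb-bh1, −0.34 to 1.22 for Hbb-y, −0.051 to 0.66 for Hbb-bs, −0.12 to 0.58 for Hbb-bt, −0.31 to 0.51 for Hba-a2 and −0.24 to 0.43 for Slc4a1. The log2 ratio of Hbb-y to Hbb-bh1 ranged between genotypes from −0.25 to 1.05 at gd10.5, −0.17 to 0.073 at gd14.5 and −1.04 to 1.40 at gd16.5, from −2.58 to −1.60 between gd14.5 and gd16.5 and −2.70 to −1.60 between gd16.5 and gd19.5. That of Hbb-bt to Hbb-bs ranged from −0.14 to 0.42 between genotypes at gd10.5, 0.56 to 0.78 from gd10.5 to gd14.5 and −0.23 to −0.16 from gd16.5 to gd19.5.

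Deviations of same-numbered libraries correlated at −0.455 to 0.406 between genotypes and −0.236 to 0.0895 between stages, with no comparison in which all were over 0.1. Between genotypes all were positive at gd14.5 (0.111, 0.0271 and 0.167) and gd19.5 (0.0954, 0.0379 and 0.114), and signs were mixed at gd10.5 and gd16.5. With 3 libraries a group these values cannot tell whether same-numbered libraries were prepared together. With the replicate block, members called were 0 at each stage between genotypes, 7, 6 and 4 over the WT steps and 6, 2 and 0 over the KO steps, where Hba-a1 lost its call from gd10.5 to gd14.5 (1.26, edgeR adjusted p = 0.0616), and Hba-x between genotypes at gd19.5 was −0.091.

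Counts over all genes moved more. Between genotypes 1, 3, 1 and 4 genes were called at the 4 stages. With no expression filter 44, 50 and 82 were called at the last 3. DESeq2 called 2 at gd10.5, 47 at gd16.5 and, at the last stage, 18. Without the 5 libraries edgeR called 238 at gd10.5. With no fold limit the WT steps had 10360, 4153 and 1476 calls in place of 4116, 1037 and 397, and the KO steps 8523, 3226 and 229 in place of 3460, 1391 and 128. With at least 10 counts in every library they had 2520, 554 and 220 in WT and 2163 and 768 in the first 2 KO steps. The last KO step had 435 with no filter, 465 with DESeq2, 316 with voom, 331 without the 5 libraries, 11 with the replicate block and 0 to 541 with 1 library left out. The interaction had 38 with DESeq2 and 325 without the 5 libraries.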
